A study of Arabidopsis thaliana with 12 samples.

Results

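The transcriptome described here is that of Arabidopsis thaliana plants of the Col-0 accession that stably carried a green fluorescent protein (GFP) construct with the BAR selection marker and no effector. These plants are the study's Control group, and all 4 Control libraries of the 12 libraries in the series were taken, as their labels name them. The RNA came from pooled aerial tissue of plants grown in soil at 22 °C with a light period of 16 h and harvested on day 15 after germination. The other 8 libraries, from plants that carry a fungal effector fused to GFP, were not used. Whether the 4 Control libraries represent separate sowings or separate transformants is not given in the labels, so the spread between them may be partly technical. The counts of the GFP and BAR transgenes were not analysed here.

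Aerial tissue at this age is mostly green leaf. Leaf cells use nuclear genes to build most of the light-harvesting antenna, the peripheral subunits of both photosystems and the small subunit of Rubisco, the enzyme that fixes carbon dioxide, while the photosystem cores and the large subunit are encoded in the plastid. When Rubisco takes oxygen in place of carbon dioxide, the photorespiratory pathway recycles the product through chloroplast, peroxisome and mitochondrion. Many of these proteins are encoded by several near-identical paralogs, and the counts show how the RNA is shared among them.

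Levels are given as counts per 1000000 counts of a library (CPM). Ranks by CPM order loci by their share of the counts, which grows with transcript length. Members of a list were ordered by a level divided by exon length and scaled to the same total (TPM). Means are given ± SD over the 4 libraries, and libraries are listed in the order Control 1 to Control 4. Every value is a description of these libraries, and no test was made because there is 1 group.

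The libraries held 6645703, 15082516, 14144272 and 37378917 counts. Control 1 stood apart from the other 3 before any gene was considered. Of its surviving reads, 57.6% were listed as aligned, against 93.2%, 89.3% and 94.4% in Control 2, 3 and 4. The listed number for Control 1 is in doubt, however, because its total count exceeded the 6578769 reads listed as aligned, whereas in the other 3 libraries the total count was the lower of the pair. The mate inner distance used for alignment was 50, 60, 55 and 84 bp. Over the 12089 loci with a mean of at least 10 CPM, the Spearman correlation across loci was 0.867, 0.869 and 0.832 between Control 1 and the others, and 0.981, 0.969 and 0.949 among the others. These correlations are across loci, which are not independent replicates. No pair of libraries was identical, and none was within sampling noise of another, since chi-square per degree of freedom was 8.74 for Control 2 against Control 3, the closest pair, and 106 for Control 1 against Control 4, the most distant. Sums of gene lists are therefore given by library, or as a mean over the 4 libraries. Where Control 1 moves such a mean most, the mean over Control 2 to 4 is given beside it.

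The table holds 32833 loci. All 285 plastid and mitochondrial loci stood at 0 in every library, so the organelle-encoded subunits of the photosynthetic complexes are not part of this description. Of the 32548 nuclear loci, 6603 had no count in any library and 21122 had a count in all 4. A mean of at least 1 CPM was reached by 18647 loci, at least 10 CPM by 12089, at least 100 CPM by 1937 and at least 1000 CPM by 91. Protein-coding loci took 98.8% ± 0.358 of the counts, and 18116 of 27444 of them reached 1 CPM. The deepest library, Control 4, detected the most loci, 24597, against 22868 in Control 1. At the depth of Control 1, however, the others would be expected to detect 21789, 22098 and 21999 loci, fewer than the 22868 of Control 1. A count of 0 allows up to 0.451 CPM in Control 1 and up to 0.0803 CPM in Control 4, taken as 3 counts and covering counting error only.

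A small number of loci carried much of the RNA. The 10 highest loci by mean CPM took 5.22%, 8.10%, 7.48% and 8.92% of the counts, the 100 highest 17.7%, 25.6%, 24.3% and 26.4%, and the 1000 highest 44.6%, 51.9%, 50.3% and 52.1%. Control 1 was the lowest in all 3 measures. Counting each library's own highest loci, 50% of the counts lay in 1252 loci in Control 1 and in 868, 958 and 838 loci in the others. All 10 of the highest loci, 23 of the 30 highest and 49 of the 100 highest belonged to the photosynthesis lists, and a further 6 of the 100 highest to the photorespiration list. Of the 30 highest by CPM, 25 were also among the 30 highest per length, and of the 100 highest 79 were, though places shifted within these sets. RCA, at rank 3 by CPM, was at rank 8 per length, and PSBR moved from rank 14 to rank 6.

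**Figure D1:**
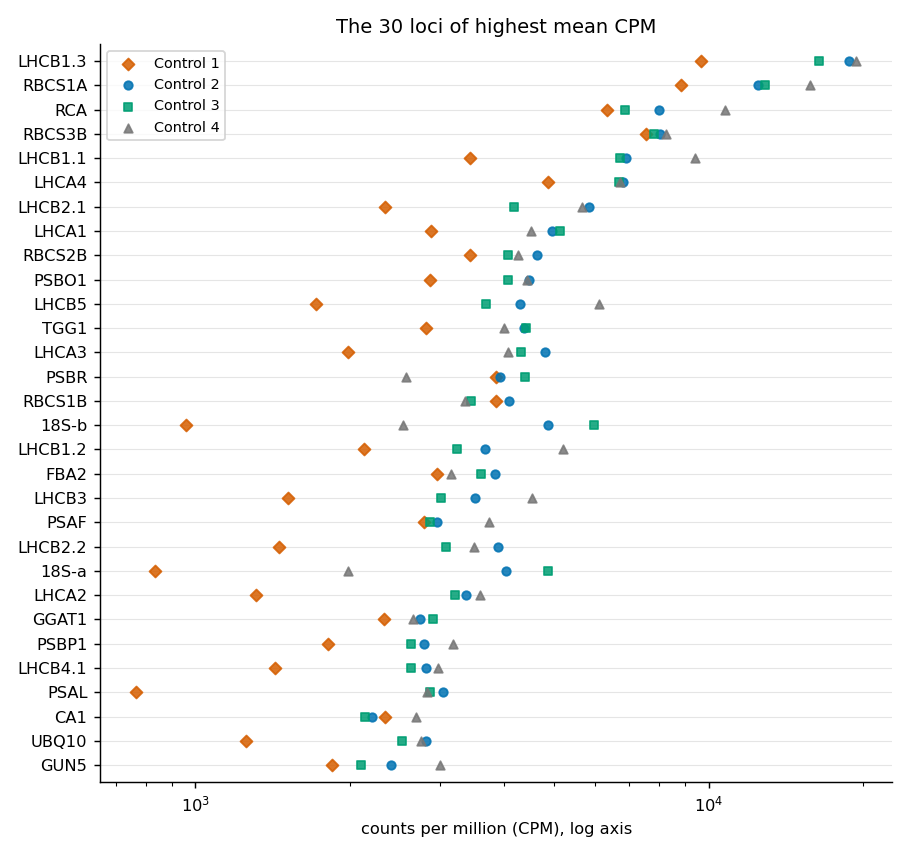
CPM on a log axis in each Control library for the 30 loci of highest mean CPM, from highest to lowest. Control 1 (diamonds) is the lowest library for most of these loci, by the widest margins at the 18S rRNA loci and PSAL, and lies within the others at PSBR, RBCS1B and CA1.

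The highest locus was LHCB1.3 (AT1G29930, also named CAB1), which encodes an antenna protein of photosystem II. It stood at 9657, 18814, 16383 and 19418 CPM, a mean of 16068 ± 4471, or 1.61% of all counts. Control 1 was far below the other 3, whose mean was 18205 ± 1607 CPM. RBCS1A (AT1G67090), a Rubisco small subunit gene, followed at 8825, 12466, 12878 and 15789 CPM, a mean of 12490 ± 2856. RCA (AT2G39730), Rubisco activase, which frees inhibited Rubisco sites, came next at 6345, 7996, 6865 and 10787 CPM. RBCS3B (AT5G38410) varied little, at 7559, 8054, 7843 and 8253 CPM. The next places were held by LHCB1.1, LHCA4, LHCB2.1, LHCA1, RBCS2B and PSBO1, all of the antenna, Rubisco or the photosystem II oxygen-evolving complex.

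The 7 of the 30 highest loci outside the photosynthesis lists were TGG1, both 18S rRNA loci, GGAT1, CA1, UBQ10 and GUN5. TGG1 (AT5G26000), a myrosinase that cleaves glucosinolates in defence against herbivores, was 12th at 2811, 4364, 4412 and 3984 CPM. GGAT1 (AT1G23310), a peroxisomal aminotransferase of photorespiration, was at 2655 ± 240 CPM. CA1 (AT3G01500), a chloroplast carbonic anhydrase, was at 2346 ± 242 CPM. UBQ10 (AT4G05320), a polyubiquitin gene often used as a reference gene, was at 1252, 2814, 2528 and 2749 CPM, with Control 1 below the rest. GUN5 (AT5G13630), the large subunit of the magnesium chelatase that begins the chlorophyll branch of tetrapyrrole synthesis, was at 2335 ± 496 CPM.

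Taken as lists, the 79 nuclear photosynthesis genes held 11.8%, 18.1%, 17.0% and 19.3% of the counts, a mean of 16.5% ± 3.28. Without Control 1 the mean was 18.1% ± 1.17. All 79 reached 1 CPM, and 49 were among the 100 highest loci. Their length-scaled levels ranged widely, however, from the 21700 ± 5911 TPM of LHCB1.3 to the 8.54 ± 0.663 TPM of PSBP2.

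The antenna was the largest block. Its 21 genes held 3.83%, 7.87%, 7.04% and 8.58% of the counts, and all 21 were lower in Control 1 than in each other library. For comparison, Control 1 was the lowest library at 33.8% of the 12089 loci of at least 10 CPM. The 5 LHCB1 genes, which encode the most abundant trimer subunit of photosystem II, took 2.86% ± 0.899, or 3.27% ± 0.428 without Control 1. The other 10 LHCB genes, for the remaining trimer and monomer antenna proteins, took 2.23% ± 0.811, or 2.60% ± 0.371 without Control 1. Highest per length among these were LHCB2.1 (AT2G05100), at 5323 ± 1904 TPM, and LHCB5 (AT4G10340), at 4724 ± 2160 TPM, and LHCB7 (AT1G76570) was the lowest at 23.0 ± 6.56 TPM. The 6 LHCA genes, for the photosystem I antenna, took 1.74% ± 0.424, or 1.96% ± 0.0499 without Control 1. LHCA4 (AT3G47470) and LHCA1 (AT3G54890), whose products pair in the antenna belt, led at 8050 ± 1116 and 5696 ± 1274 TPM, and LHCA6 (AT1G19150) was the lowest at 93.1 ± 31.3 TPM.

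Photosystem subunits varied less between libraries than the antenna. The 12 photosystem I genes held 1.54%, 1.71%, 1.75% and 1.70% of the counts, so that Control 1 was near the others. Within the list, however, single genes differed in direction. PSAL (AT4G12800), a subunit needed for the docking of the mobile antenna, was at 766, 3036, 2866 and 2823 CPM. PSAD2 (AT1G03130), one of 2 genes for the ferredoxin-docking subunit D, was at 3170, 1448, 1488 and 1123 CPM. Control 1 was thus the lowest library for PSAL and the highest for PSAD2. The highest per length was PSAF (AT1G31330), the plastocyanin-docking subunit, at 4268 ± 603 TPM, followed by PSAL at 3449 ± 1545 TPM, and the lowest was PSAH1 (AT3G16140) at 536 ± 155 TPM.

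The 12 nuclear photosystem II genes held 1.45%, 2.11%, 2.1% and 2.08% of the counts. PSBR (AT1G79040), a small subunit of the oxygen-evolving side, was highest per length at 7821 ± 1615 TPM, and PSBO1 (AT5G66570), the manganese-stabilizing protein, came next at 4365 ± 793 TPM. PSBP2 was the lowest at 8.54 ± 0.663 TPM. Electron transport and ATP synthase genes, 10 in the list, held 0.887% ± 0.116, or 0.945% ± 0.00745 without Control 1. FD2 (AT1G60950), the main leaf ferredoxin, and PETE2 (AT1G20340), a plastocyanin, led at 2655 ± 348 and 2643 ± 814 TPM. PETE1 (AT1G76100), the second plastocyanin gene, was the lowest at 266 ± 29.0 TPM.

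Genes of carbon fixation other than Rubisco formed a list of 20 that held 2.39% ± 0.377 of the counts, or 2.54% ± 0.263 without Control 1. RCA, at 6336 ± 1565 TPM, and FBA2 (AT4G38970), a chloroplast aldolase, at 3184 ± 348 TPM, led it, and TKL2 (AT2G45290), a transketolase, was the lowest at 10.5 ± 1.56 TPM. PRK (AT1G32060), phosphoribulokinase, which makes the Rubisco substrate, was steady at 1360, 1564, 1362 and 1391 CPM. Photorespiration, with 17 genes, held 1.43% ± 0.166. GGAT1 led at 2002 ± 149 TPM and AGT1 (AT2G13360), the serine to glyoxylate aminotransferase, followed at 1473 ± 220 TPM. GLO3 (AT4G18360), a glycolate oxidase paralog, was the lowest at 1.69 ± 0.894 TPM. PGLP1 (AT5G36700), the phosphatase at the entry of the pathway, was at 373, 370, 385 and 376 CPM, among the 5 steadiest loci of at least 100 CPM. Of all 100-base windows that can be laid along its exons, however, 90.24% are shared with a second locus.

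Nitrogen assimilation, which takes up the ammonia that photorespiration frees, held 0.582% ± 0.0390 over 10 genes. GLN2 (AT5G35630), the chloroplast glutamine synthetase, led at 1358 ± 97.0 TPM, followed by the nitrate reductase gene NIA2 (AT1G37130) at 730 ± 61.6 TPM, and the cytosolic glutamine synthetase gene GLN1;4 (AT5G16570) was the lowest at 10.13 ± 2.99 TPM. The 6 carbonic anhydrase genes held 0.424% ± 0.0215, led by CA1 at 1196 ± 131 TPM and CA2 (AT5G14740) at 794 ± 42.9 TPM, with CA3 (AT1G23730) lowest at 7.59 ± 5.65 TPM. The 3 catalase genes, whose products break down hydrogen peroxide in the peroxisome, held 0.180%, 0.339%, 0.332% and 0.371%. CAT3 (AT1G20620) was at 874 ± 299 TPM and CAT2 (AT4G35090) at 729 ± 147 TPM, ranges that overlap, and CAT1 (AT1G20630) was at 42.4 ± 5.74 TPM.

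**Figure D2:**
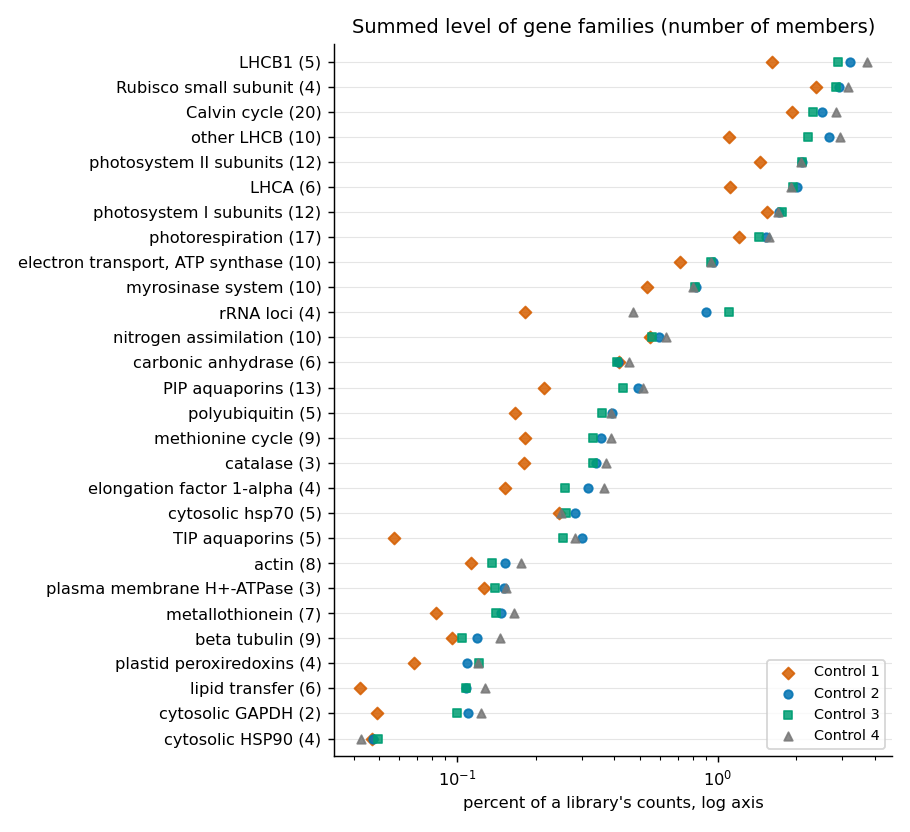
Percent of each library's counts, on a log axis, summed over the members of 28 gene families, with the number of members in brackets. Control 1 (diamonds) is the lowest library in 26 of the 28 families, and the aquaporin, polyubiquitin and rRNA sums lie far below those of the other libraries, whereas carbonic anhydrase, cytosolic HSP70 and HSP90 sums lie close together.

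The myrosinase list of 10 genes, whose products cleave glucosinolates or shape the reaction, held 0.533%, 0.826%, 0.815% and 0.801% of the counts. TGG1 and TGG2 (AT5G25980), the leaf myrosinases, were at 3416 ± 612 and 1724 ± 381 TPM, while TGG5 (AT1G51470), a root myrosinase, was at 0.0991 ± 0.161 TPM. PIP aquaporins, water channels of the plasma membrane, held 0.216%, 0.493%, 0.433% and 0.515% over 13 genes. PIP1;2 (AT2G45960) and PIP2;1 (AT3G53420) led at 1283 ± 495 and 903 ± 353 TPM, and PIP2;4 (AT5G60660) was the lowest at 3.06 ± 1.36 TPM. TIP aquaporins, the water channels of the vacuole membrane, showed the widest gap of the protein-coding families. The 5 genes summed to 572, 3018, 2549 and 2824 CPM, so that the level in Control 1 was 0.203 times the median of the others. Without Control 1 the mean was 2797 ± 236 CPM. TIP1;2 (AT3G26520) led at 1347 ± 676 TPM and TIP2;1 (AT3G16240) followed at 1164 ± 629 TPM, while TIP2;3 (AT5G47450) was at 0.141 ± 0.0582 TPM.

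Chaperone and proton pump families differed little between the libraries in their sums. The 4 cytosolic HSP90 genes, chaperones for signalling proteins, were among the steadiest, with a summed level of 468 ± 28.0 CPM. HSP90.2 (AT5G56030) and HSP90.3 (AT5G56010) were at 122 ± 8.64 and 119 ± 8.0 TPM and did not differ beyond their spread, and HSP90.4 (AT5G56000) was at 18.4 ± 3.95 TPM. The 5 cytosolic HSP70 genes summed to 2600 ± 162 CPM, of which HSC70-1 (AT5G02500) was at 1398 ± 113 TPM, HSC70-3 (AT3G09440) at 162 ± 31.7 TPM and HSP70-5 (AT1G16030) at 4.92 ± 2.89 TPM. The 3 plasma membrane proton pump genes summed to 1430 ± 123 CPM, led by AHA1 (AT2G18960) at 299 ± 15.3 TPM, with AHA2 (AT4G30190) at 140 ± 30.9 TPM and AHA3 (AT5G57350) at 137 ± 4.50 TPM.

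Actin, tubulin, ubiquitin and GAPDH genes, which often serve as references, were lower in Control 1. The 8 actin genes summed to 1125, 1530, 1363 and 1754 CPM, with ACT2 (AT3G18780) at 595 ± 72.5 TPM, ACT8 (AT1G49240) at 274 ± 62.3 TPM and the pollen actin gene ACT4 (AT5G59370) at 0.325 ± 0.280 TPM. Beta-tubulin genes, 9 in all, summed to 954, 1186, 1047 and 1460 CPM, with TUB4 (AT5G44340) at 229 ± 74.4 TPM and TUB6 (AT5G12250) at 194 ± 30.1 TPM leading within their spread of each other, and TUB1 (AT1G75780) at 6.58 ± 1.88 TPM. The 5 polyubiquitin genes summed to 1663, 3923, 3601 and 3871 CPM, with UBQ10 at 1897 ± 583 TPM, UBQ11 (AT4G05050) at 538 ± 202 TPM and UBQ4 (AT5G20620) at 63.4 ± 16.7 TPM. Cytosolic GAPDH, a glycolytic enzyme with 2 genes, summed to 492, 1100, 996 and 1234 CPM, with GAPC2 (AT1G13440) at 625 ± 188 TPM and GAPC1 (AT3G04120) at 273 ± 113 TPM. For all 4 of these families Control 1 was the lowest library.

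The remaining lists were smaller or less certain. The 4 elongation factor 1-alpha genes, which deliver transfer RNAs to the ribosome, summed to 1531, 3175, 2587 and 3648 CPM, led by EF1A-A4 (AT5G60390) at 708 ± 195 TPM and EF1A-A1 (AT1G07920) at 617 ± 205 TPM, with EF1A-A2 (AT1G07930) lowest at 382 ± 146 TPM. The methionine cycle, 9 genes that make the methyl donor S-adenosylmethionine, held 0.314% ± 0.0910 of the counts (0.358% ± 0.0287 without Control 1), led by SAHH1 (AT4G13940) at 618 ± 179 TPM and METS1 (AT5G17920) at 525 ± 208 TPM, with METS3 (AT5G20980) at 6.11 ± 1.18 TPM. Genes for metallothioneins, small metal-binding proteins, summed to 831, 1467, 1407 and 1653 CPM. They were led by MT2B (AT5G02380) at 2634 ± 697 TPM and MT3 (AT3G15353) at 731 ± 305 TPM. MT4A (AT2G42000) had no count in any library. MT1A (AT1G07600) was also listed at 0 in every library, but its exons lie wholly within those of another locus on the same strand, and all 119 such loci in the table stood at 0. Genes for lipid transfer proteins of the leaf surface summed to 422, 1076, 1083 and 1279 CPM. They were led by LTP1 (AT2G38540) at 857 ± 282 TPM and LTP5 (AT3G51600) at 782 ± 349 TPM, and LTP4 (AT5G59310) was lowest at 0.728 ± 0.698 TPM. The 4 genes for plastid peroxiredoxins, which remove peroxides, summed to 681, 1087, 1212 and 1205 CPM. Of these, 2CPA (AT3G11630) at 673 ± 237 TPM and PRXQ (AT3G26060) at 340 ± 35.3 TPM led, and 2CPB (AT5G06290) was lowest at 195 ± 31.8 TPM.

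Ribosomal RNA remained in the libraries although the kit selects messenger RNA. The 4 rRNA loci summed to 1826, 9019, 11028 and 4737 CPM, and they had the highest CV of the 28 families, 62.4%. The 18S loci AT3G41768 and AT2G01010 held nearly all of it, at 3585 ± 2260 and 2927 ± 1849 CPM. Of the 100-base windows along their exons 88.3% are shared, so their split is uncertain.

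Large families were also summed by the product names of the annotation. Proteins named as ribosomal, 374 loci, held 3.34% ± 0.339 of the counts, and 339 of them reached 1 CPM. Loci named as kinases, 1331 in number and not all of them protein kinases, held 4.29% ± 0.403. Loci named for F-box proteins, which select targets for ubiquitination, numbered 653, of which 154 reached 1 CPM and 327 had no count in any library. Among 113 loci named as defensins, 9 reached 1 CPM. By comparison, 66.0% of all protein-coding loci reached 1 CPM. Cytochrome P450 loci, 248 in number, held 0.432% ± 0.0166, led by CYP83B1 (AT4G31500), an enzyme of indole glucosinolate synthesis, at 353 ± 72.1 CPM. Transcription factor families had small sums, with 1442 ± 398 CPM over 72 WRKY loci, 2291 ± 559 CPM over 180 MYB loci and 2374 ± 312 CPM over 135 bHLH loci. A mean of 1 CPM was reached by 69.4% of the WRKY, 45.0% of the MYB and 62.2% of the bHLH loci.

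The share of each paralog was measured within 47 groups of 155 genes, as a percentage of the group's length-scaled level. The leading member held over 50% on average in 39 groups and over 80% in 14. Many of the groups are pairs, in which the leader holds at least 50% whatever the levels. The number 39 was therefore partly fixed in advance. In 38 groups the same member led in all 4 libraries, and in 44 the same member led in Control 2 to 4. Some groups were close to a single gene. PSBP1 held 99.7% ± 0.0474 of the PSBP pair, SHM1 98.4% ± 0.515 of the SHM pair, GGAT1 97.7% ± 0.428 of the GGAT pair and GLU1 96.4% ± 0.387 of the GLU pair. In other groups no member stood out. TUB4 held 22.3% ± 3.79 of the beta-tubulin level and TUB6 19.3% ± 1.2, and PSBQ1 and PSBQ2 held 50.5% ± 5.56 and 49.5% ± 5.56 of their pair.

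**Figure D3:**
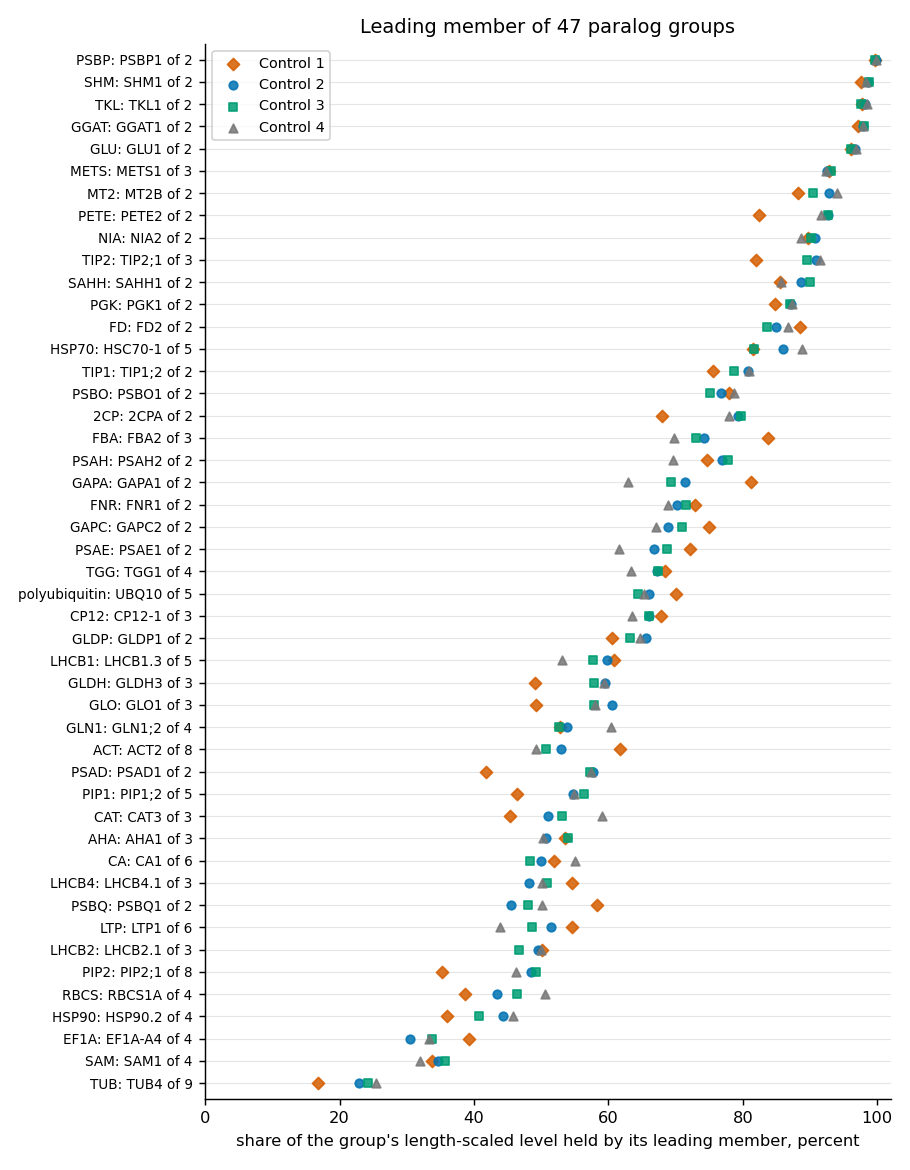
Share of each paralog group's length-scaled level held by its leading member, in percent, in each of the 4 Control libraries, with the leader and the group size named on the axis. Shares run from 99.7% for PSBP1 to 22.3% for TUB4 on average, and Control 1 (diamonds) lies apart from the others at PSAD, 2CP, PETE and PIP2.

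The Rubisco small subunit family shows how far the paralogs can be told apart. RBCS1A lies on chromosome 1, and RBCS1B (AT5G38430), RBCS2B (AT5G38420) and RBCS3B lie side by side on chromosome 5. Between RBCS1A and the 3 others, coding sequences are 87.7% to 90.11% identical, and among those 3 the identity is 94.1% to 97.3%. The stretches below are 90 coding bases each, aligned without gaps and read 5′ to 3′ from the TAIR10.1 genome of RefSeq. They come from coding bases 15 to 104 in every gene and are shown because such differences decide which paralog a read can be assigned to. Capitals mark the bases that differ from RBCS1A, 20 in RBCS1B, 20 in RBCS2B and 17 in RBCS3B. All 4 genes are on the minus strand, at chr1:25049146-25049235 for RBCS1A, chr5:15385052-15385141 for RBCS1B, chr5:15381875-15381964 for RBCS2B and chr5:15378203-15378292 for RBCS3B, and each stretch is within 1 coding exon.
RBCS1A: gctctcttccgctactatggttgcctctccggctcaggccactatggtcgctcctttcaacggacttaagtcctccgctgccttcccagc
RBCS1B: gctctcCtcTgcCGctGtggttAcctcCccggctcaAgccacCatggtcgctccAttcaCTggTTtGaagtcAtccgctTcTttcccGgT
RBCS2B: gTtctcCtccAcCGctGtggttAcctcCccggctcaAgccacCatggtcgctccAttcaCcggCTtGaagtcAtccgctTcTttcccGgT
RBCS3B: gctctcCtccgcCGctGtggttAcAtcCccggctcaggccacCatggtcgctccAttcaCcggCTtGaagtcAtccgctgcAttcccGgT

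RBCS1A held 38.6%, 43.4%, 46.4% and 50.6% of the family in the 4 libraries, and it led in each. RBCS3B held 26.0% ± 2.58, RBCS2B 20.1% ± 1.4 and RBCS1B 9.07% ± 1.75. No 100-base window along the exons of RBCS1A or RBCS2B was shared with another locus. For RBCS3B 9.99% of the windows were shared and for RBCS1B 7.30%, and these 2 genes share theirs with each other. Windows overlap, so the percentage of bases that lie in a shared window can be higher. Together the 4 genes held 2.37%, 2.92%, 2.82% and 3.16% of the counts.

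Within LHCB1, LHCB1.3 held 57.8% ± 3.42, LHCB1.1 (AT1G29920) 21.7% ± 1.80, LHCB1.2 (AT1G29910) 12.7% ± 1.37 and LHCB1.4 (AT2G34430) 6.61% ± 1.15. LHCB1.5 (AT2G34420) held 1.1% ± 0.482, but all of its exon bases are overlapped by a locus on the opposite strand, so its level is uncertain. Coding identity within the family was 86.7% to 96.4%, and at most 4.44% of the 100-base windows of a member were shared. In the PSAD pair, PSAD1 held 41.8% in Control 1 and 57.8%, 57.3% and 57.5% in the others, so that the leader differed between Control 1 and the rest. Elongation factor 1-alpha was the least certain group, since coding identity was 93.8% to 99.6% and up to 58.4% of a member's 100-base windows were shared. EF1A-A4 led it with 34.2% ± 3.64.

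Marker genes of organs placed the libraries in vegetative shoot tissue. The 12 root genes, which include the endodermal CASP genes and the iron transporter IRT1, summed to 2.26 to 4.39 CPM and none reached a mean of 1 CPM. CASP2 (AT3G11550), the highest per length, was at 1.57 ± 0.458 TPM, ESB1 (AT2G28670) at 0.827 ± 0.657 TPM and CASP1 (AT2G36100) at 0.644 ± 0.466 TPM. Flower and pollen genes, 8 in all, summed to 1.59 to 4.66 CPM. PI (AT5G20240), a petal and stamen identity gene, was the highest at 1.32 ± 0.958 TPM, SEP3 (AT1G24260) was at 1.05 ± 0.390 TPM and AG (AT4G18960) at 0.286 ± 0.164 TPM, and the anther gene A9 had no count. Seed storage and oil body genes, 10 in all, summed to 0.141 to 0.464 CPM, and 3 of them, SESA3, SESA4 and CRU3, were at 0 in all 4 libraries. The highest were SESA1 (AT4G27140) at 0.203 ± 0.109 TPM, SESA2 (AT4G27150) at 0.105 ± 0.142 TPM and OLEO1 (AT4G25140) at 0.0827 ± 0.135 TPM.

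Every shoot cell type list had genes with a mean of at least 1 CPM, though only 5 of 6 in the xylem list and 3 of 5 in the meristem list. Epidermis genes summed to 534, 654, 558 and 733 CPM, with PDF1 (AT2G42840) at 264 ± 46.2 TPM, FDH (AT2G26250), a fatty acid elongase of the cuticle, at 166 ± 32.6 TPM and PDF2 (AT4G04890) at 36.3 ± 3.90 TPM. Phloem genes summed to 330, 373, 322 and 381 CPM, with PP2-A1 (AT4G19840) at 170 ± 40.3 TPM, the sucrose transporter gene SUC2 (AT1G22710) at 110 ± 41.9 TPM and SEOR1 (AT3G01680) at 28.1 ± 8.02 TPM. Xylem genes summed to 107 ± 25.1 CPM, led by the proteases XCP2 (AT1G20850) and XCP1 (AT4G35350) at 53.2 ± 13.3 and 18.9 ± 4.70 TPM and the cellulose synthase gene IRX5 (AT5G44030) at 9.71 ± 1.75 TPM. In bulk tissue, fewer cells of a type and less RNA per cell cannot be told apart.

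Guard cell and stomatal lineage genes summed to 206, 143, 137 and 134 CPM, highest in Control 1. KAT1 (AT5G46240), a potassium channel, led at 42.4 ± 12.8 TPM, with the transcription factor genes MYB60 (AT1G08810) at 24.6 ± 11.9 TPM and FAMA (AT3G24140) at 23.8 ± 7.71 TPM. The 7 members did not move together, since 4 were highest in Control 1 and 2, including TMM, a receptor of the stomatal lineage, were lowest there. Over all loci of at least 10 CPM, Control 1 was the highest library at 45.4% and the lowest at 33.8%. The member numbers are thus near those of loci at large. The trichome genes GL2 (AT1G79840) and GL1 (AT3G27920) were at 15.4 ± 0.891 and 2.19 ± 0.737 TPM. In the meristem list, CLV1 (AT1G75820) was at 73.5 ± 7.31 TPM, KNAT1 (AT4G08150) at 6.56 ± 0.426 TPM and STM (AT1G62360) at 3.16 ± 0.671 TPM, whereas the stem cell genes WUS (AT2G17950) and CLV3 (AT2G27250) were at 0.0320 ± 0.0436 and 0.0136 ± 0.0272 TPM.

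**Figure D4:**
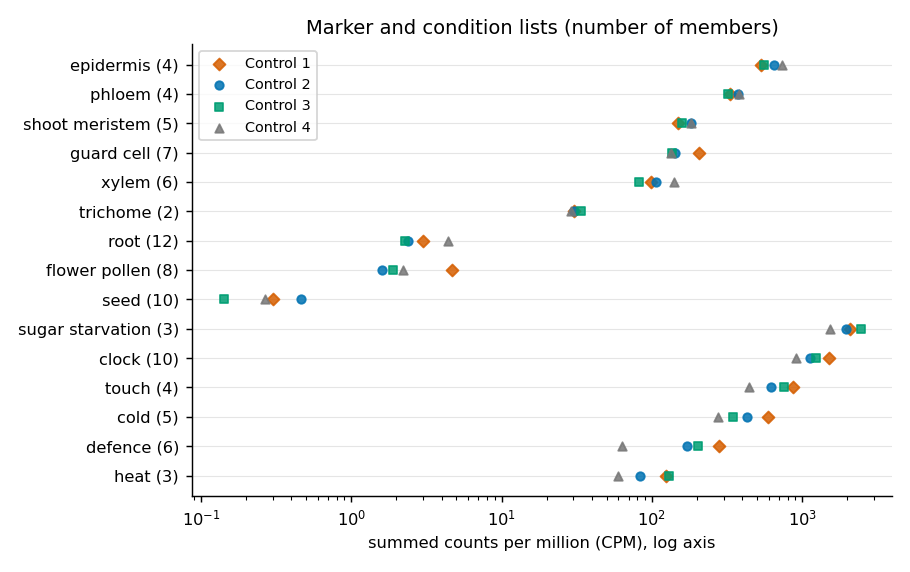
Summed CPM on a log axis of 9 marker lists, then 6 condition lists, in each Control library, with the number of genes in brackets. Root, flower and pollen, and seed sums lie below 5 CPM in every library, and the shoot cell type sums lie between 28.9 and 733 CPM.

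Genes that report the time of day or the state of the plants were also described. LHY (AT1G01060) and CCA1 (AT2G46830), the MYB genes that peak around dawn, were at 242 ± 36.2 and 215 ± 37.3 TPM, and PRR7 (AT5G02810), a repressor that peaks later in the morning, was at 117 ± 59.8 TPM. The afternoon and evening genes TOC1 (AT5G61380), GI (AT1G22770) and LUX (AT3G46640) were at 14.1 ± 4.1, 6.79 ± 0.511 and 2.16 ± 0.889 TPM. The time of harvest is not given in the labels. In CPM, LHY was at 539, 526, 540 and 388, lowest in Control 4, and PRR7 at 392, 169, 193 and 151, highest in Control 1.

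Defence genes differed between the libraries by more than the clock genes. The 6 genes summed to 279, 172, 204 and 63.1 CPM, against 1506, 1135, 1228 and 908 CPM for the 10 clock genes. PR2 (AT3G57260), a glucanase induced by salicylic acid, was at 140, 51.1, 55.3 and 9.66 CPM, and PR1 (AT2G14610), another salicylic acid marker, at 60.2, 25.4, 50.1 and 4.57 CPM. Both were highest in Control 1 and lowest in Control 4. Per length, the defensin gene PDF1.2A (AT5G44420), a jasmonate and ethylene marker, led at 108 ± 54.9 TPM, with PR2 at 72.6 ± 63.2 TPM and PR1 at 64.8 ± 46.7 TPM. VSP2 (AT5G24770), a jasmonate-induced gene, had the opposite order to PR2, at 3.61, 12.9, 9.83 and 19.9 CPM.

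Cold, touch, heat and sugar lists were expressed throughout. COR47 (AT1G20440), a cold-induced dehydrin, was at 463, 289, 252 and 163 CPM, or 210 ± 94.0 TPM, with KIN2 (AT5G15970) at 147 ± 9.73 TPM and COR15A (AT2G42540) at 50.5 ± 17.9 TPM. The calmodulin-like gene TCH3 (AT2G41100) was at 318 ± 119 TPM, the cell wall enzyme gene TCH4 (AT5G57560) at 154 ± 18.7 TPM and TCH2 (AT5G37770) at 23.6 ± 15.6 TPM. Heat genes were low, with HSP90.1 (AT5G52640) at 34.3 ± 17.2 TPM, HSP70-4 (AT3G12580) at 23.3 ± 4.91 TPM and HSP101 (AT1G74310) at 10.3 ± 4.21 TPM. Among genes induced when sugar is scarce, DIN1 (AT4G35770) was at 1289, 1048, 1479 and 638 CPM, or 1428 ± 459 TPM, and ASN1 (AT3G47340), asparagine synthetase, at 460 ± 44.2 TPM, with DRM1 (AT1G28330) at 145 ± 23.5 TPM. No gene of these 6 lists was at 0 in all 4 libraries. Control 4 was the lowest library in all 6 sums.

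Agreement of the libraries was then measured locus by locus. The coefficient of variation (CV, the SD as a percentage of the mean) had a median of 18.7% over loci of at least 10 CPM, and 10.5% over the same loci without Control 1. Counting error alone would give a median CV of 4.82%. The biological coefficient of variation estimated by edgeR was 27.6% with all 4 libraries and 15.1% without Control 1, and leaving out another library gave 28.7% to 32.2%. Of these loci, 97.2% were within 1.5-fold between Control 2 and Control 3, against 60.0% to 66.2% between Control 1 and another library. Control 1 was the highest library at 45.4% of loci and the lowest at 33.8%.

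The 5 steadiest loci of at least 100 CPM had CVs of 1.72% to 2.07%. They were DCP5 (AT1G26110), a decapping protein of mRNA turnover, PGLP1, ELI3-1 (AT4G37980), an alcohol dehydrogenase homolog, the coatomer subunit gene AT4G31480 and BTI1 (AT4G23630), a reticulon-like membrane protein. DCP5 was at 199, 199, 195 and 192 CPM. BTI1 was at 153, 151, 147 and 155 CPM.

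Of the 10 loci with the widest ratio between libraries, 8 were highest in Control 1. Largest was AT3G03105, an RNA with no coding sequence, at 1032, 15.3, 14.4 and 6.88 CPM, a ratio of 150. Next came AT4G20362 at 849, 29.8, 36.7 and 12.3 CPM, AT1G55673 at 912, 40.2, 45.2 and 23.2 CPM, AT1G72600 at 629, 28.2, 38.1 and 19.2 CPM and AT3G22121 at 931, 40.2, 66.0 and 32.6 CPM. These 4, and AT2G08665 further down the list, have 81.5% to 100% of their exon bases overlapped by a locus on the opposite strand. Among the partners are PSAG (AT1G55670), a photosystem I subunit, LHCB1.5 and GER1 (AT1G72610), a germin-like cell wall protein. The levels of the remaining partners are not given here. PSAG itself was at 165, 361, 407 and 473 CPM and LHCB1.5 at 80.1, 394, 373 and 243 CPM. GER1 was at 17.2, 113, 126 and 33.9 CPM. These 3 genes were lowest in Control 1, where the loci opposite them were highest. They are only some of the partners, and the loci opposite them had been picked for their wide range between libraries. For comparison, Control 1 was the lowest library at 33.8% of all loci of at least 10 CPM. GCN2 (AT3G59410), a stress-responsive kinase with 17.0% of its exons overlapped, was at 426, 44.4, 49.6 and 39.0 CPM.

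The remaining 3 loci have no overlapping partner. AT1G56660, annotated as a MAEBL domain protein, was at 313, 33.4, 45.7 and 21.6 CPM. AIG1 (AT1G33960), a GTPase gene induced in immunity, was at 167, 58.1, 167 and 17.6 CPM, high in Control 1 and 3 alike. AT2G01021, an uncharacterized locus, was at 27.8, 115, 163 and 233 CPM, lowest in Control 1.

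Loci on the opposite strand of other loci differed between libraries as a class. The 938 loci whose exons were wholly overlapped on the opposite strand and not on the same strand summed to 5579, 740, 841 and 432 CPM. Long noncoding RNA loci, 3480 in all, summed to 10921, 911, 1124 and 883 CPM. Loci without coding sequence that have no overlap, 2815 in all, summed to 3332, 10149, 12361 and 5902 CPM, lowest in Control 1. The 4 rRNA loci alone summed to 1826, 9019, 11028 and 4737 CPM. The order of the larger sum thus follows the rRNA loci and does not describe the other loci of the class. Of the 938 loci, 663 had counts, whereas none of the 119 loci wholly overlapped on the same strand did. Whether strand was used in counting is not given in the sources used here, and levels of overlapped loci are uncertain in both members of a pair.

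In CPM, the 10 loci with the largest excess in Control 1 over the median of the others were AT1G54410, a dehydrin family gene, AT5G40450, PSAD2, TOC159, HR4, RLM3, LARP6b, CLPC1 and the noncoding loci AT3G03105 and AT3G22121. AT1G54410 was at 2990, 649, 704 and 414 CPM, and AT5G40450, an A-kinase anchor-like gene, at 3331, 1365, 1241 and 981 CPM. TOC159 (AT4G02510), a receptor of the chloroplast import machinery, was at 1522, 426, 443 and 440 CPM. HR4 (AT3G50480), a homolog of a mildew resistance gene, was at 1520, 507, 899 and 266 CPM, and RLM3 (AT4G16990), of the TIR-NBS resistance class, at 1806, 839, 855 and 596 CPM. The 10 with the largest deficit were LHCB1.3, RBCS1A, LHCB1.1, LHCB2.1, LHCB5, LHCA3, PSAL, LHCA1 and both 18S loci, that is, 8 photosynthesis genes and ribosomal RNA.

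The deviation of Control 1 ran with the base composition of the transcripts. Over 8378 protein-coding loci of at least 10 CPM with no overlapping locus, the Spearman correlation between the log2(CPM + 1) difference of Control 1 from the median of the other 3 and the purine content of the sense-strand exons was 0.579. The same measure gave -0.269, -0.0765 and -0.220 for Control 2, 3 and 4, each against its own other 3, which include Control 1. With GC content it was -0.0887 and with exon length 0.204 for Control 1, and for Control 3 it was -0.397 with length. In the lowest decile of purine content, below 46.9%, the median difference of Control 1 was -0.41, and in the highest, from 54.2% up, it was 0.86. Control 1 was higher than the median of the others at 22.7% of loci in the lowest decile and at 97.3% in the highest. The points share libraries and their depth, and what produced the relation was not tested.

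**Figure D5:**
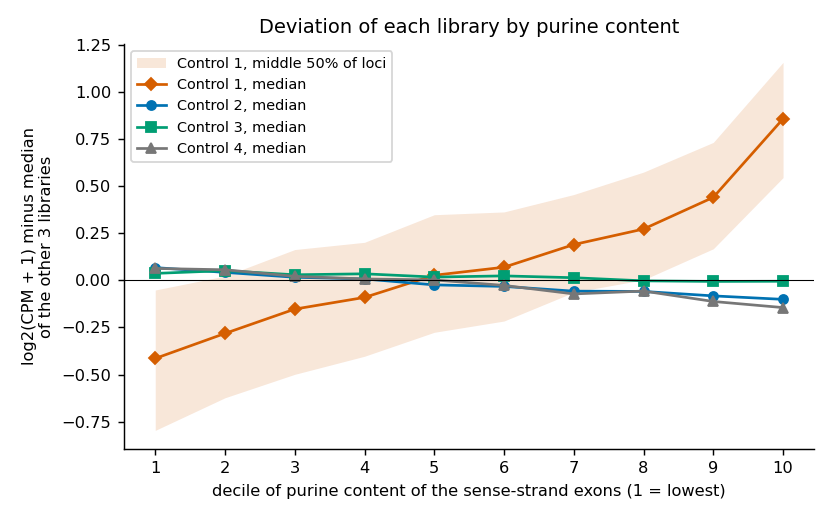
Median difference of log2(CPM + 1) of each library from the median of the other 3 libraries, by decile of the purine content of the exons, over 8378 protein-coding loci without overlap, with the shaded band spanning the middle 50% of loci for Control 1. The Control 1 line rises from -0.41 in the lowest decile to 0.86 in the highest, and the other lines stay between -0.14 and 0.07.

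Stretches from genes at the extremes of this difference are shown as examples. Below are 90 bases from the middle of the coding sequence, on the sense strand of TAIR10.1 from RefSeq, with purines (A and G) in capitals. They belong to the 3 genes of highest and the 3 of lowest log2 difference of Control 1, among coding loci of at least 100 CPM with at least 300 coding bases, no overlap and the stretch within 1 exon. Those in excess are AT1G56660 (chr1:21239548-21239637), the uncharacterized AT2G22080 (chr2:9387686-9387775) and AT1G47970, named a nucleolin (chr1:17687595-17687684), all on the plus strand. Those in deficit are PSBX, a small subunit of photosystem II (chr2:2587999-2588088, minus strand), PSAL (chr4:7522026-7522115, plus strand) and FSD1, an iron superoxide dismutase (chr4:12885288-12885377, minus strand).
AT1G56660: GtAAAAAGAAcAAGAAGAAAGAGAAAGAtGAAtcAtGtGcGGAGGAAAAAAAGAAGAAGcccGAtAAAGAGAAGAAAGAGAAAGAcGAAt
AT2G22080: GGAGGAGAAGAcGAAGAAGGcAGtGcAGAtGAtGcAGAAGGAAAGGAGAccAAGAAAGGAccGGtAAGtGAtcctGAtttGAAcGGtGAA
AT1G47970: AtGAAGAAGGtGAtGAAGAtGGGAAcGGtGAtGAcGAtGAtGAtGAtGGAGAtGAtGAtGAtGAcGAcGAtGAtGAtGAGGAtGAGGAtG
PSBX: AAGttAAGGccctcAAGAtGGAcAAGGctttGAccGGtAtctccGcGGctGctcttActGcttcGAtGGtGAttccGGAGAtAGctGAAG
PSAL: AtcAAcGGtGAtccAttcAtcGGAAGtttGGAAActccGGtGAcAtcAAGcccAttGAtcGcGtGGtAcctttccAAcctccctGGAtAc
FSD1: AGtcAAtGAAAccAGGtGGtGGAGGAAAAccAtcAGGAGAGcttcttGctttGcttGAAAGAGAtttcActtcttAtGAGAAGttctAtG

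Purines made up 84.4%, 75.6% and 74.4% of the stretches of the genes in excess, and 51.1%, 45.6% and 55.6% of those in deficit. Over the whole exon sequences they made up 70.6%, 54.2% and 56.0% in the genes in excess, and 45.6%, 46.5% and 47.9% in those in deficit. The FSD1 stretch thus lay above the median exon purine content of all protein-coding loci, 50.8%, while its whole exon sequence lay below it. AT1G47970 was at 417, 66.7, 73.4 and 56.3 CPM and PSBX at 288, 1034, 1102 and 1606 CPM, so that Control 1 was the highest library for the first and the lowest for the second. Family sums did not all follow composition. The TIP aquaporins had the lowest median purine content of the 28 families, 44.9%, and Control 1 was at 0.203 times the median of the others, in the direction of the relation. Carbonic anhydrase genes, at 48.4%, were at 1.01 times. The rRNA loci had one of the highest contents, 52.2%, yet were at 0.202 times. They lie outside the protein-coding loci over which the relation was measured.

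Structure and upstream sequence of the most highly expressed genes were also described. The 100 highest protein-coding loci had a median of 3 exons, 1553 exon bases and a GC content of 43.0%, against 4 exons, 1552 bases and 41.1% over all 27443 protein-coding loci with an upstream window. In the 250 bases before the annotated start, the G-box CACGTG, a palindrome, was present at 15 of the 100 highest loci and at 6.49% of all. The I-box GATAAG, searched on both strands, was present at 20 of the 100 and at 12.3% of all. TATAAA, also on both strands, was found at 39 of the 100 and at 47.4% of all. These counts describe letters in the window and do not show binding.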

How the data were processed

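RNA was measured in 4 Control libraries. Per the labels' protocols, total RNA was DNase-treated and 100 ng went into TruSeq Stranded mRNA libraries made on a NeoPrep instrument. Read pairs of 100 nt were sequenced on an Illumina HiSeq instrument. Trimming used Trimmomatic, per the submitters' processing notes, and reads were then, per the design text, aligned to TAIR10 with TopHat 2.0.14, and counted per Ensembl Plants locus in R 3.2.5 by GenomicAlignments in union mode. The deposited values are whole-number counts of read pairs per locus, not normalized by the authors. A second table deposited by the authors gives, in other units, read numbers and the mate inner distance in bp. Neither the use of strand nor the treatment of reads with several alignments was stated, so values of near-identical and overlapping loci are uncertain.

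Counts were scaled by library total to CPM, and for comparison between genes divided by exon length (union of all transcripts) and rescaled to 1000000. Exons, names and sequences came from the RefSeq TAIR10.1 annotation, which 99.1% of identifiers matched. The counts carry no coordinates, so builds were not mixed. Dispersion, TMM and size factors came from edgeR 4.0.16 and DESeq2 1.42.0 under R 4.3.3, and the rest from Python 3.11.15, pandas 2.3.3, scipy 1.17.1 and Biopython 1.88. The dispersion and deviation steps were checked on simulated data. Alternatives left out each library, changed the scaling, the ranking, the length, the level filter or the pseudocount.

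Named loci were the 30 of highest mean CPM, the 2 highest and the lowest per length in each family, the 3 highest in each marker or condition list, the 10 widest-ranging and 5 steadiest of at least 100 CPM, and the 10 largest differences of Control 1 each way. Others were named after their values were seen. The members, lists and rules were chosen with earlier results of these data known.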

Additional observations from a re-analysis of the deposited data

Results flagged for a closer look

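Values were looked at again where 1 of the 4 libraries lay far from the other 3 by Dixon's criterion. Of 140 values tested, 29 met it, and Control 1 stood apart in 26. Chance flags about 1 value in 20, but some of the loci were chosen for their wide range between libraries. That rate is therefore no yardstick for the number flagged. The values are also not independent of each other. No explanation was tested.

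Control 1 stood apart in its share of aligned reads, 57.6% against 89.3% to 94.4% in the others, though its listed number of aligned reads is below its total count. Summed levels were low in Control 1 for the LHCA genes (11125 against 19108 to 20094 CPM), photosystem II (14496 against 20785 to 21067 CPM), electron transport and ATP synthase (7137 against 9403 to 9537 CPM), polyubiquitin (1663 against 3601 to 3923 CPM) and the myrosinase list (5332 against 8007 to 8259 CPM). They were high there for guard cell genes (206 against 134 to 143 CPM), antisense RNA loci (524 against 10.14 to 32.2 CPM) and long noncoding RNA loci (10921 against 883 to 1124 CPM). Carbonic anhydrase stood apart in Control 4, at 4562 against 4114 to 4157 CPM.

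Among single loci, LHCA4 was at 4866 CPM in Control 1 against 6683 to 6820 in the others, LHCA2 at 1309 against 3201 to 3591, and PSAL at 766 against 2823 to 3036. Loci that were high in Control 1 were AT3G03105 at 1032 CPM, AT4G20362 at 849, AT1G55673 at 912, AT1G72600 at 629, AT3G22121 at 931, AT1G56660 at 313, AT2G08665 at 949 and GCN2 at 426, and in the other libraries none of these 8 exceeded the 120 CPM of AT2G08665.

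Leader shares that stood apart were low in Control 1 for PSAD (41.8% against 57.3% to 57.8%), PETE (82.4% against 91.7% to 92.7%), PGK (84.8% against 87.0% to 87.2%), GLDH (49.1% against 57.9% to 59.6%), PIP1 (46.4% against 54.7% to 56.4%) and 2CP (68.0% against 78.0% to 79.7%). The LHCB2 leader was low in Control 3 (46.7% against 49.5% to 50.1%), and the GLN1 leader was high in Control 4 (60.4% against 52.6% to 53.8%).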

How the results depend on the processing

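No paired analysis was possible because there is 1 group, so replicate numbers pair nothing. Over the 5 main results, 2 of 41 alternative values moved. The photosynthesis sum was 98594 CPM against 165335 when the 10 highest loci, all of them members, were left out. The median CV was 10.5% against 18.7% without Control 1. The number of loci has no SD to judge its alternatives by, so that none counted as moved is no sign of stability. It depended on the definition, from 17195 loci of at least 1 CPM in every library to 25945 with a count in any, against 18647. Leaving out each library in turn gave a median CV of 10.5% to 21.0%, a share of the 100 highest loci of 22.6% to 25.5%, 18120 to 18794 loci of at least 1 CPM, a photosynthesis sum of 156144 to 181045 CPM and an RBCS1A share of 42.8% to 46.8%. TMM and DESeq2 scaling moved none of the 4 results that a library scaling can change, and the RBCS1A share is not among those.

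Of 743 alternative values for 93 other results, 37 moved by more than the SD over the 4 libraries. They came from another gene length or from totals without the 10 highest loci. Leaving out 1 library of 4 cannot move a mean that far, so such values are no sign of stability: without Control 1 the TIP sum was 2797 CPM against 2241 and the flower and pollen sum 1.91 against 2.60. PSBQ was led by PSBQ2 with coding length (54.9%), with no length scaling (55.5%) and without Control 1 (52.1%), and LTP by LTP5 with coding length or with no length scaling (46.8% each). The purine correlation of Control 1 was 0.520 to 0.611 over its alternatives. The setting with overlapping loci included, 0.575, was chosen after seeing the data. Depth limits the lowest genes, since a count of 0 allows up to 0.451 CPM in Control 1.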
